A study of Homo sapiens with 12 samples.

Results

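The 10 genes described here are members of the BCL2 family, which sets the threshold for apoptosis at mitochondria, together with the death receptor gene TNFRSF10B. They were chosen by symbol as BCL2, BCL2L1, MCL1, BAX, BAK1, BID, BCL2L11, BBC3, PMAIP1 and TNFRSF10B, and all 10 were found in each of 3 deposited expression tables, which list 16489, 18215 and 55744 genes. RNA was sequenced from HCC70 and MDA-MB468, 2 established human triple-negative breast cancer (TNBC) cell lines, after 24 h of treatment, with 1 library per condition and 12 libraries in all. HCC70 and MDA-MB468 cells each had 5 conditions: vehicle, 1.25 or 2.5 μM XY018, 1.25 μM atorvastatin (ATV), and the combination of 1.25 μM of each compound. In a separate experiment MDA-MB468 cells received vehicle or GSK805 at 2.5 μM. XY018 and GSK805 are antagonists of the nuclear receptor RORγ, and ATV is a statin, an inhibitor of the mevalonate pathway enzyme HMG-CoA reductase. The growth protocol in the labels names added insulin for MDA-MB468, vehicle cultures included, and not for HCC70, while the study's methods name no insulin for MDA-MB468. In MDA-MB468 the dose of ATV comes from the treatment protocol, since the sample titles do not give it.

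In the mitochondrial pathway of apoptosis, BH3-only proteins such as BIM (gene BCL2L11), PUMA (BBC3), NOXA (PMAIP1) and BID bind and block the anti-apoptotic proteins BCL2, BCL-xL (BCL2L1) and MCL1. The effectors BAX and BAK1, once released or activated, form pores in the outer mitochondrial membrane, so that cytochrome c is set free and caspases are activated. In the death receptor pathway, the ligand TRAIL (gene TNFSF10) engages DR5, the product of TNFRSF10B, which recruits FADD and caspase-8, and cleaved BID links this arm to mitochondria. Much of the control of these proteins is by binding, cleavage and degradation, which RNA levels do not show.

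Levels are FPKM as the authors computed them, the fragments of a gene scaled by its transcript length and by all mapped fragments of the library. A change is given as log2 of the treated over the vehicle level of the same table, after 0.1 FPKM was added to each. A gene was compared when it reached 1 FPKM in at least one of both libraries, and was called higher or lower past 1.5-fold (0.585 on the log2 scale). With 1 library per condition there is no replicate spread and no test. The tables hold no read counts. Spacing between low FPKM values gave an estimate of depth, from 9100000 to 9980000 fragments over the HCC70 libraries, from 18000000 to 19900000 over the 5 MDA-MB468 libraries with XY018, ATV or their vehicle, and 8360000 and 8680000 for the GSK805 pair. The intervals in parentheses after a log2 ratio are exact Clopper-Pearson 95% intervals for counting error alone, from an estimate of each gene's fragments.

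BBC3, which encodes the BH3-only protein PUMA, was above its vehicle in 9 of 9 comparisons and had the widest range of log2 ratios among the genes at 1 FPKM or above in every library. In MDA-MB468 its level was 8.70 FPKM with vehicle, 22.6 with XY018 at 1.25 μM, 26.5 with XY018 at 2.5 μM, 12.2 with ATV and 40.2 FPKM with both compounds. Every treated library of that experiment thus lay above vehicle, with both compounds together far above either alone. The log2 ratio was 1.36 (1.18 to 1.57) with XY018 at 1.25 μM, 1.59 (1.42 to 1.80) at 2.5 μM, 0.48 (0.27 to 0.70) with ATV and 2.20 (2.03 to 2.39) with both. With both compounds BBC3 stood at place 70 from the top among 11906 genes compared. From 1.25 to 2.5 μM XY018 it differed by 0.23 on the log2 scale (0.09 to 0.37). The 9 comparisons are not independent, since those within a table share their vehicle library.

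In HCC70 the level of BBC3 was 2.68 FPKM with vehicle, 3.13 with XY018 at 1.25 μM, 4.02 with XY018 at 2.5 μM, 5.04 with ATV and 5.34 FPKM with both compounds. The level with ATV alone was above those with XY018, unlike in MDA-MB468, but this order rests on an estimated 92 fragments with ATV against 52 and 73 with XY018, and no interval was computed for it. The log2 ratio was 0.22 (-0.36 to 0.84), 0.57 (0.05 to 1.16), 0.89 (0.41 to 1.47) and 0.97 (0.49 to 1.55) in the same order. These values rest on an estimated 47 fragments in the vehicle library and 52 to 96 in the treated ones. The interval for XY018 at 1.25 μM covers 0, as do those of the dose step from 1.25 to 2.5 μM, at 0.35 (-0.17 to 0.90), and of both compounds against ATV alone, at 0.08 (-0.35 to 0.51), so these neighbours in the order were not told apart at this depth. With GSK805 in MDA-MB468, BBC3 was at 17.6 FPKM against 10.8 in its own vehicle, a log2 ratio of 0.70 (0.41 to 1.01) and place 2891 from the top among 19951 genes compared.

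BCL2L11, which encodes the BH3-only protein BIM, was higher in MDA-MB468 and showed little difference in HCC70. Its level in MDA-MB468 was 10.9 FPKM with vehicle, 16.0 with XY018 at 1.25 μM, 15.6 with XY018 at 2.5 μM, 12.3 with ATV and 22.8 FPKM with both. All 4 treated libraries were above vehicle and the library with both compounds was the highest. The log2 ratio was 0.56 (0.45 to 0.68) at 1.25 μM XY018 and 0.52 (0.41 to 0.64) at 2.5 μM, both just under the 1.5-fold threshold, 0.18 (0.06 to 0.30) with ATV and 1.07 (0.97 to 1.18) with both compounds. The step from 1.25 to 2.5 μM was -0.04 (-0.15 to 0.06), so no dose step was detectable. In HCC70 the level was 13.0 FPKM with vehicle and ran from 11.7 to 14.8 FPKM with treatment, with log2 ratios from -0.16 to 0.19. With GSK805 BCL2L11 was at 27.7 against 15.8 FPKM, a log2 ratio of 0.80 (0.66 to 0.94), the highest ratio among the 10 genes in that comparison.

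**Figure D1:**
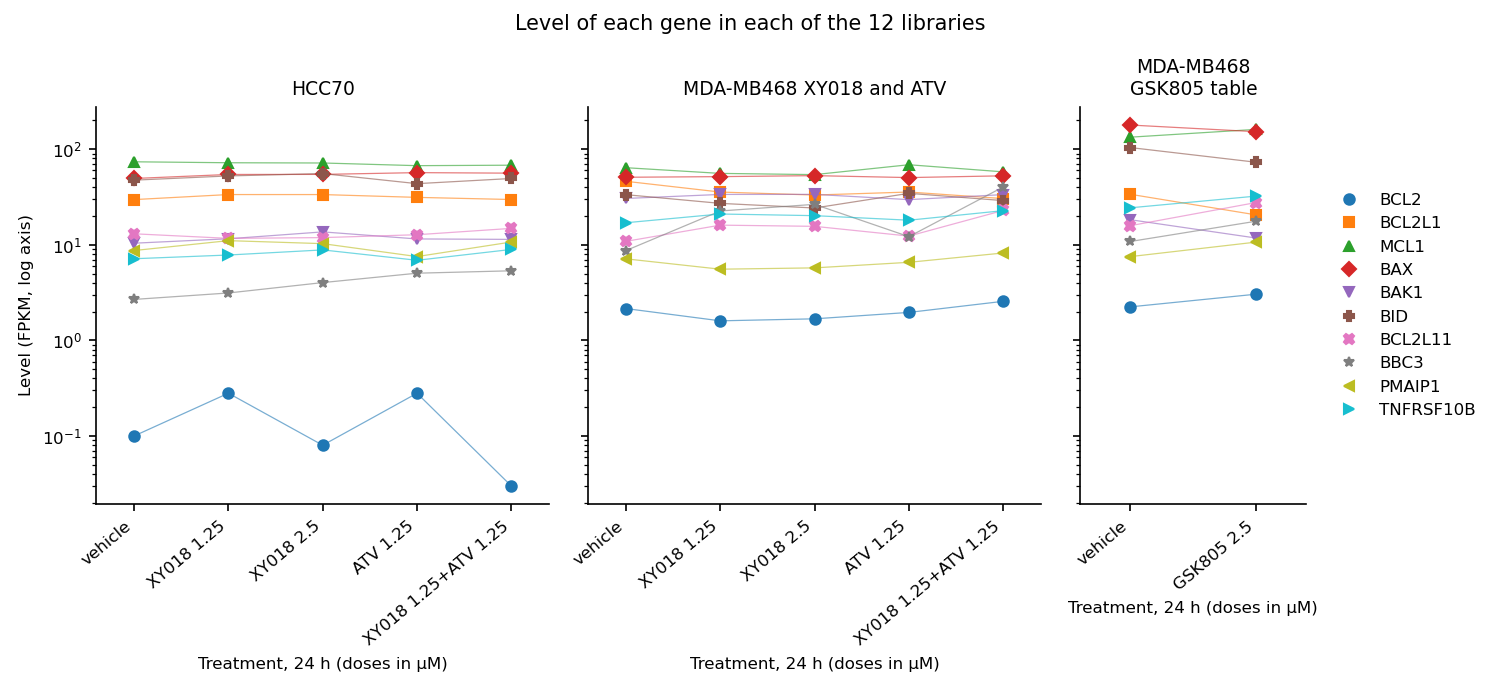
Level in FPKM on a log axis (y) of each of the 10 genes in each of the 12 libraries (x, treatment with doses in μM), 1 point per library, with lines only joining the points of a gene. BBC3 moves from 8.70 to 40.2 FPKM in MDA-MB468 between vehicle and both compounds, while MCL1 and BAX stay near the top of the HCC70 and XY018 panels and BCL2 lies under 1 FPKM in HCC70.

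BBC3 and BCL2L11 were higher together in MDA-MB468, and their promoters are shown so that the sequence upstream of both starts can be read. RefSeq promoter sequences (GRCh38.p14) were matched for 8 of the 10 genes, and those of MCL1 and TNFRSF10B were not used here. The 250 bases before the start of BBC3 lie at chr19:47232668-47232917 on the minus strand and those of BCL2L11 at chr2:111120664-111120913 on the plus strand, both written 5′ to 3′ with matches to the motifs named below in capitals.
BBC3: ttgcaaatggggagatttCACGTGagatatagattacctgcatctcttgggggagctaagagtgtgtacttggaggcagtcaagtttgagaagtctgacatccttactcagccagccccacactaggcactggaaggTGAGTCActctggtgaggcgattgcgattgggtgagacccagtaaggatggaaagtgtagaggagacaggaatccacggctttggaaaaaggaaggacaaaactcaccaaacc
BCL2L11: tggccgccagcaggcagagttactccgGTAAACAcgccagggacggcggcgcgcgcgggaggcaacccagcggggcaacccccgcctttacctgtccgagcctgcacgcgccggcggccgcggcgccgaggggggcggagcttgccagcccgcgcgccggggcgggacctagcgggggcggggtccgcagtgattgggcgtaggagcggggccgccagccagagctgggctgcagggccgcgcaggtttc
The G and C content of these stretches was 49.2% for BBC3 and 76.8% for BCL2L11. Motifs were searched on both strands in the window from 250 bases before to 50 bases after each start. For BBC3 and BCL2L11, which have 4 and 18 RefSeq transcripts, only the start shown was searched. The ATF4-C/EBP element TGATGNAA and the CRE TGACGTCA matched in none of the 8 genes, and matched in 3.16% and 1.64% of 34788 promoters. The AP-1 site TGACTCA, held by 4.21% of promoters, matched once in BBC3, on the strand opposite to the one printed and so read there as TGAGTCA, beginning at position -113 from its start. The forkhead site GTAAACA, held by 2.98%, matched in BCL2L11 at position -223. The E box CACGTG, held by 6.31%, matched in BBC3 at position -232, 4 times in BAX and in 2 of the 5 promoters listed for BID. These are matches of letters in a short window, and no binding was measured here.

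The other 2 BH3-only genes showed no call in any comparison. PMAIP1, which encodes NOXA, a partner of MCL1, was at 7.12 FPKM with vehicle in MDA-MB468, 5.55 and 5.73 with XY018 at 1.25 and 2.5 μM, 6.55 with ATV and 8.20 FPKM with both. It was thus below vehicle with either compound alone, at log2 ratios of -0.35 (-0.63 to -0.09), -0.31 (-0.59 to -0.04) and -0.12 (-0.38 to 0.14), and above it with both together, at 0.20 (-0.04 to 0.45). In HCC70 PMAIP1 was at 8.70 FPKM with vehicle, 11.04, 10.27 and 10.68 FPKM in the 3 libraries with XY018 and 7.52 FPKM with ATV alone. With GSK805 it was at 10.7 against 7.52 FPKM, a log2 ratio of 0.50 (0.13 to 0.87).

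BID, whose product carries the signal of death receptors to mitochondria, was at 33.4 FPKM with vehicle in MDA-MB468, 27.1 and 24.2 FPKM with XY018 at 1.25 and 2.5 μM, 34.5 with ATV and 29.0 with both compounds. The 3 libraries with XY018 lay below vehicle, at log2 ratios of -0.30 (-0.41 to -0.19), -0.46 (-0.58 to -0.34) and -0.20 (-0.32 to -0.09). With GSK805 BID was also below its vehicle, at 72.9 against 103.8 FPKM and a log2 ratio of -0.51 (-0.61 to -0.40). In HCC70 the 5 levels of BID lay between 43.6 and 55.5 FPKM, with log2 ratios from -0.12 with ATV to 0.23 (0.11 to 0.35) with XY018 at 2.5 μM.

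The anti-apoptotic gene BCL2L1, which encodes BCL-xL, was lower in every treated MDA-MB468 library. Its level was 46.1 FPKM with vehicle, 35.6 with XY018 at 1.25 μM, 33.1 with XY018 at 2.5 μM, 35.6 with ATV and 30.4 FPKM with both. The log2 ratio was -0.37 (-0.46 to -0.28), -0.48 (-0.57 to -0.38), -0.37 (-0.46 to -0.28) and -0.60 (-0.70 to -0.51) in that order, past 1.5-fold only with both compounds. ATV alone moved few genes in MDA-MB468, and the ratio of BCL2L1 stood at place 286 from the bottom among 11710 genes there, against place 2042 among 11844 with XY018 at 1.25 μM. With GSK805 BCL2L1 was at 20.5 against 33.7 FPKM, a log2 ratio of -0.71 (-0.90 to -0.54). In HCC70 it was not lower, at 29.7 FPKM with vehicle and 29.7 to 33.5 FPKM in the treated libraries, with log2 ratios from 0.00 to 0.17.

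MCL1, the gene of a short-lived anti-apoptotic protein, was the highest of the 10 in all 10 libraries of the XY018 and ATV experiments, at 67.2 to 73.7 FPKM in HCC70 and 54.2 to 68.7 FPKM in MDA-MB468. Its log2 ratios were small, from -0.24 (-0.30 to -0.18) with XY018 at 2.5 μM in MDA-MB468 to 0.27 (0.21 to 0.33) with GSK805, where it was at 161.0 against 133.4 FPKM. BCL2 itself was weakly expressed. In HCC70 it was at 0.03 to 0.28 FPKM, an estimated 2 to 19 fragments per library, and was not compared. In MDA-MB468 BCL2 was at 2.15 FPKM with vehicle, 1.60 and 1.68 with XY018 at 1.25 and 2.5 μM, 1.96 with ATV and 2.56 FPKM with both, and with GSK805 at 3.04 against 2.24 FPKM. It was thus below vehicle with either compound alone and above it with both, at 0.24 (0.02 to 0.48). The interval with ATV alone, at -0.13 (-0.38 to 0.11), covers 0.

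Of the 2 effector genes, BAX hardly differed within a table. Its level lay between 49.3 and 56.8 FPKM over the 5 HCC70 libraries and between 50.4 and 52.8 FPKM over the 5 MDA-MB468 libraries, and the 8 counting intervals of its log2 ratios cover 0. With GSK805 it was at 152.2 against 178.7 FPKM, a log2 ratio of -0.23 (-0.37 to -0.09). BAK1 was at 10.4 FPKM with vehicle in HCC70 and highest with XY018 at 2.5 μM, at 13.6 FPKM and 0.39 (0.14 to 0.66). In MDA-MB468 BAK1 was at 30.5 FPKM with vehicle, 33.5 to 33.7 FPKM in the 3 libraries with XY018 and 29.6 FPKM with ATV. With GSK805 BAK1 went the other way, at 11.8 against 18.3 FPKM, a log2 ratio of -0.63 (-0.90 to -0.37), past 1.5-fold.

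TNFRSF10B, the gene of the TRAIL receptor DR5, was above vehicle in 8 of 9 comparisons but past 1.5-fold in 0 of them. In MDA-MB468 it was at 17.0 FPKM with vehicle, 21.0 and 20.2 FPKM with XY018 at 1.25 and 2.5 μM, 18.1 with ATV and 22.7 FPKM with both, the last a log2 ratio of 0.42 (0.32 to 0.52). With GSK805 the ratio was 0.40 (0.27 to 0.54), at 32.3 against 24.4 FPKM. In HCC70 TNFRSF10B was at 7.14 FPKM with vehicle, 7.81 and 8.83 FPKM with XY018 at 1.25 and 2.5 μM, 6.88 with ATV and 8.93 FPKM with both. The exception in direction was ATV in HCC70, at -0.05 (-0.30 to 0.19), which covers 0.

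**Figure D2:**
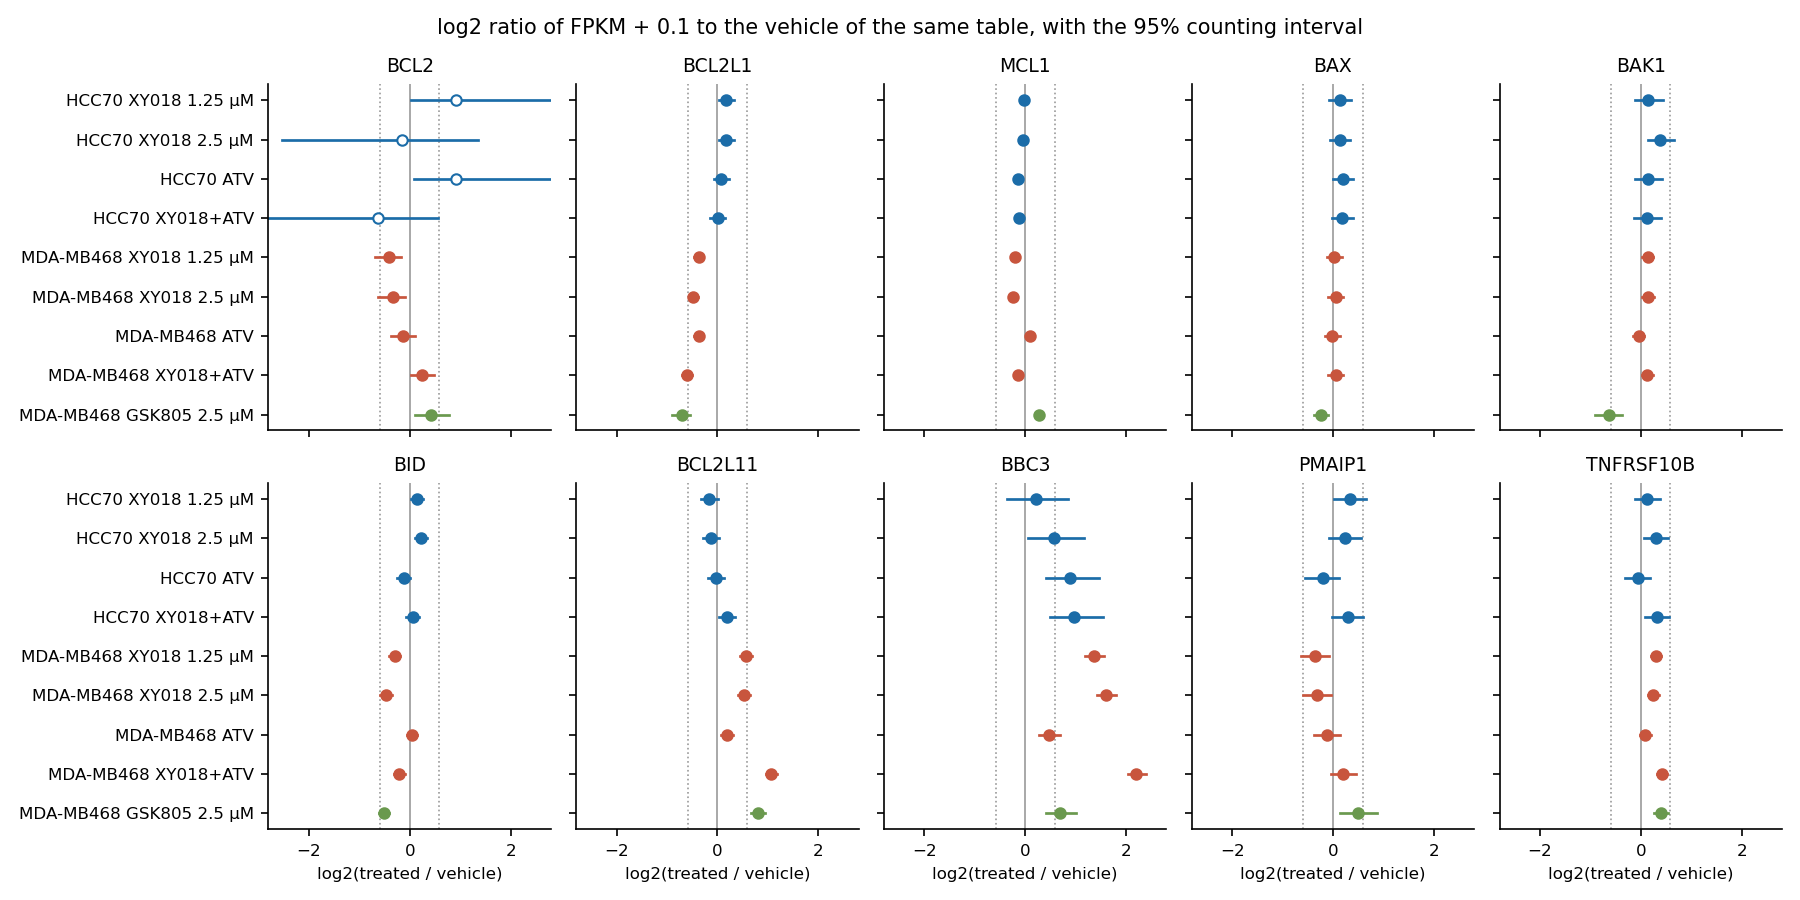
Log2 ratio to vehicle (x, 0.1 FPKM added) in each of 9 comparisons (y), 1 panel per gene, with the 95% counting interval as a bar, cut at the panel edge for BCL2 in HCC70. Dotted lines mark 1.5-fold and open points a gene under 1 FPKM in both libraries. BBC3 lies above 0 in 9 of 9 comparisons and BCL2L1 lies below 0 in all 5 MDA-MB468 comparisons. Comparisons within a table share their vehicle library.

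Read against all genes compared, few of the 10 genes passed 1.5-fold, and their counts can be set beside the share of genes called in the same comparison. In HCC70, 9 of the 10 genes were compared. With XY018 at 1.25 μM 0 of 9 were higher and 0 lower, where 1.93% of all genes were higher and 2.64% lower. With XY018 at 2.5 μM the counts were again 0 and 0, beside 2.62% and 3.26%, with BBC3 just under the threshold. With ATV 1 of 9, BBC3, was higher beside 2.22% of all genes, and 0 were lower beside 1.32%. With both compounds BBC3 was again the 1 higher gene beside 4.38%, and 0 were lower beside 2.93%. The median log2 ratio of the 9 genes was 0.15, 0.23, -0.03 and 0.19 in these 4 comparisons, where the median of all genes compared lay between -0.02 and -0.01.

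In MDA-MB468 all 10 genes were compared. With XY018 at 1.25 μM BBC3 alone was higher, beside 9.73% of all genes, and 0 were lower beside 8.38%. With XY018 at 2.5 μM BBC3 was the 1 higher gene beside 14.1%, and 0 were lower beside 14.5%. With ATV 0 were higher beside 1.37% and 0 lower beside 0.803%. With both compounds BBC3 and BCL2L11 were higher beside 13.1%, and BCL2L1 was lower beside 12.2%. With GSK805 BBC3 and BCL2L11 were higher beside 17.6%, and BCL2L1 and BAK1 were lower beside 16.6%. Among the symbols that all 3 tables hold, the shares with GSK805 were 13.4% higher and 12.5% lower. In the comparisons with XY018 or GSK805 in MDA-MB468 the count in either direction, at most 2 of 10 is near the share of all genes called, so it is no result about the 10 genes. The median log2 ratio of the 10 genes was -0.09, -0.09, 0.02, 0.17 and 0.34 in these 5 comparisons, where that of all genes compared lay between -0.01 and 0.01.

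Given together, XY018 and ATV can be set against the sum of their separate log2 ratios, which is where the gene would lie if both ratios simply multiplied. The intervals here are normal approximations to the counting error of 4 libraries. In MDA-MB468 the log2 ratio of BBC3 with both exceeded the sum by 0.35 (0.11 to 0.60), since 1.36 and 0.48 add to 1.84 and 2.20 was measured. For BCL2L11 the excess was 0.33 (0.18 to 0.48), with a sum of 0.74 and 1.07 measured. PMAIP1 and BCL2 had larger excesses, 0.67 (0.31 to 1.03) and 0.77 (0.43 to 1.12). Both genes were below vehicle with each compound alone and above it with the combination. The intervals of both with ATV alone cover 0, as does that of PMAIP1 with the combination, so these signs are not settled by counting. BCL2L1 was less far down than the sum, by 0.15 (0.01 to 0.28), and the intervals of MCL1, BAX, BAK1, BID and TNFRSF10B cover 0. In HCC70 BCL2L11 exceeded its sum by 0.38 (0.15 to 0.60), though from a sum of -0.19 to a measured 0.19. BCL2L1 lay below its sum in HCC70, by -0.25 (-0.45 to -0.04), opposite in sign to its difference in MDA-MB468. BBC3 did not exceed its sum there, at -0.13 (-0.84 to 0.57), an interval wide enough to hold the value of MDA-MB468. Each of these differences comes from 1 library per condition, and the spread between cultures is unknown.

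**Figure D3:**
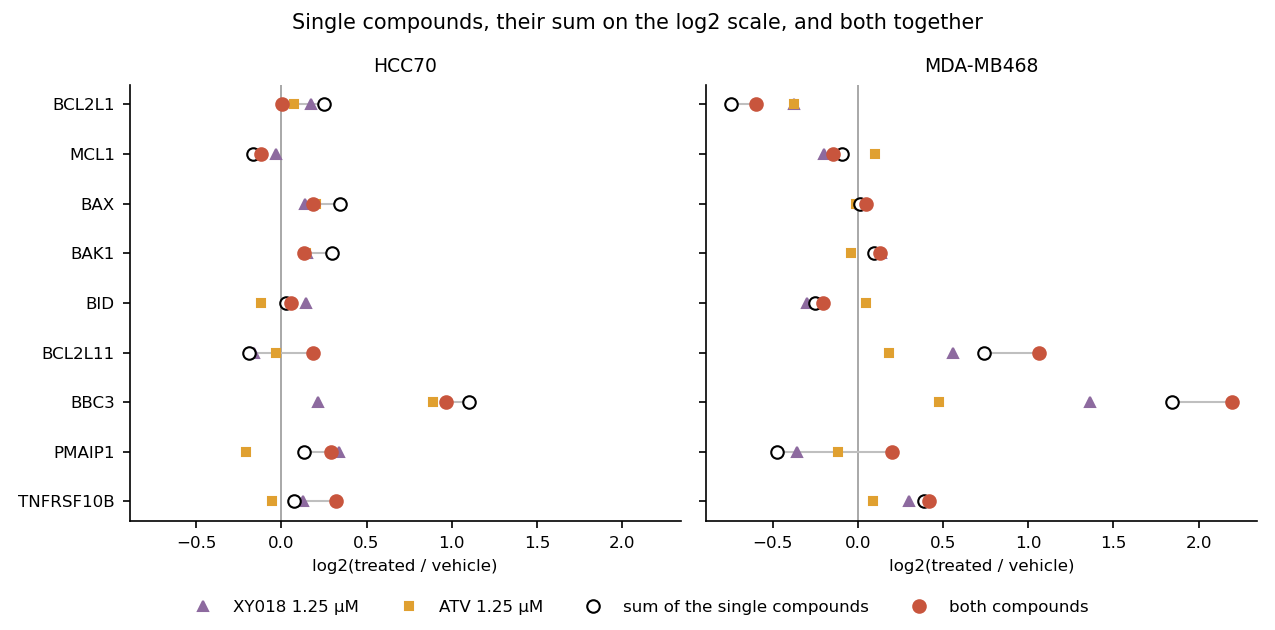
Log2 ratio to vehicle (x) of 9 genes (y) with XY018 at 1.25 μM (triangles), ATV at 1.25 μM (squares) and both (filled circles), beside the sum of the single compounds (open circles), for HCC70 (left) and MDA-MB468 (right). BCL2 is left out since HCC70 holds under 1 FPKM. For BBC3 and BCL2L11 in MDA-MB468 the filled circle lies to the right of the open one, by 0.35 and 0.33.

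As a description of the balance, the summed FPKM of the BH3-only genes BID, BCL2L11, BBC3 and PMAIP1 was divided by that of BCL2, BCL2L1 and MCL1 in each library. In MDA-MB468 the ratio was 0.536 with vehicle, 0.767 and 0.810 with XY018 at 1.25 and 2.5 μM, 0.617 with ATV and 1.10 with both. All treated libraries thus lay above vehicle, and with both compounds the BH3-only sum, 100.2 FPKM, passed the anti-apoptotic sum, 90.8 FPKM. Which sum is larger depends on the genes included. In that library the sums leave out the anti-apoptotic relative BCL2L2, at 14.9 FPKM, and the BH3-only genes BAD and BMF, at 54.4 and 16.3 FPKM. In HCC70 the ratio ran over a narrower range, from 0.694 with vehicle and 0.697 with ATV to 0.821 with both. With GSK805 the ratio was lower than its vehicle, at 0.698 against 0.815. BID makes up most of the BH3-only sum in that table, and without BID the direction turned, at 0.303 with GSK805 against 0.202 with vehicle. Without BID the ratio was 0.238 with vehicle, 0.475 and 0.537 with XY018 and 0.784 with both in MDA-MB468.

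The ratio of the effector BAX to BCL2L1 was 1.10 with vehicle in MDA-MB468, 1.45 and 1.60 with XY018 at 1.25 and 2.5 μM, 1.42 with ATV and 1.73 with both, and with GSK805 it was 7.42 against 5.30. As BAX itself hardly differed in the XY018 and ATV experiment, these values follow those of BCL2L1. In HCC70 the ratio of BAX to BCL2L1 lay between 1.62 and 1.89. These are ratios of RNA levels, not of proteins.

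**Figure D4:**
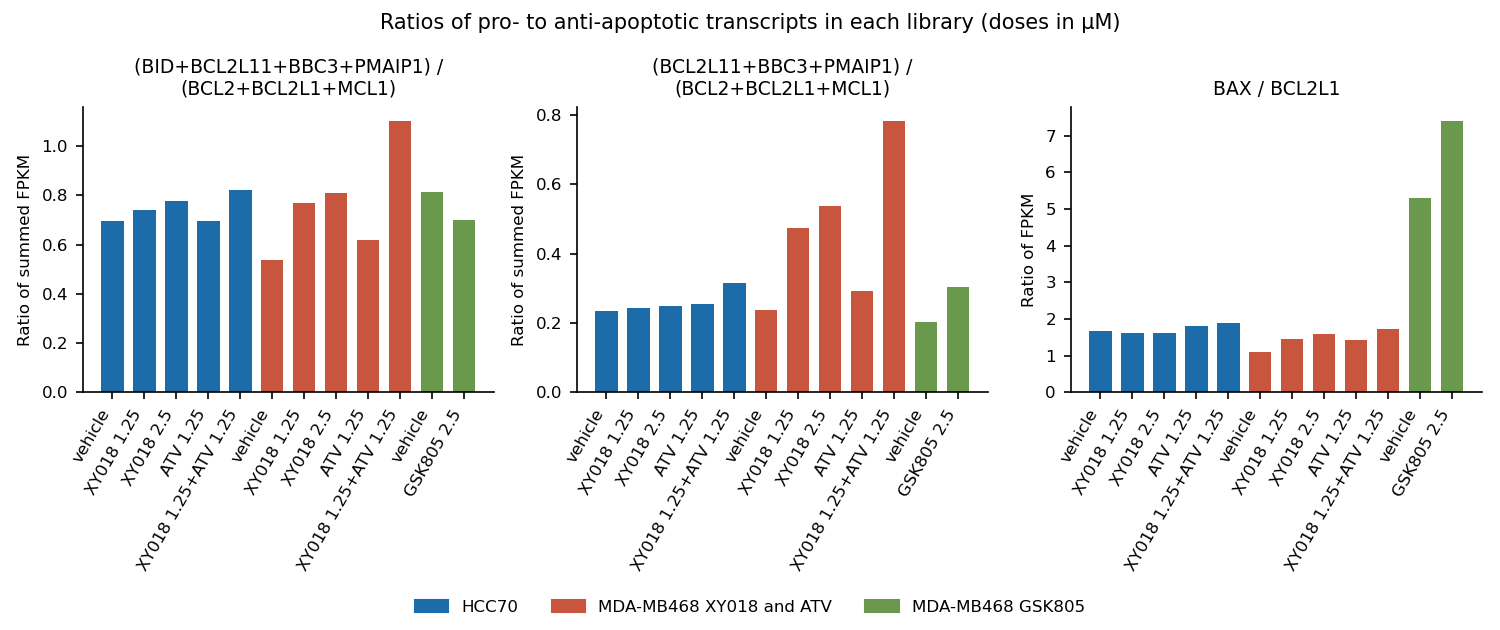
Ratio of summed FPKM (y, from 0) in each of the 12 libraries (x) for BH3-only to anti-apoptotic genes with BID (left) and without it (middle), and the ratio of BAX to BCL2L1 (right), 1 bar per library and no error bars as no condition has a replicate. The bar for both compounds in MDA-MB468 is highest in the left and middle panels, at 1.10 and 0.784.

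XY018 and GSK805, both at 2.5 μM for 24 h in MDA-MB468, can be set side by side only through their own vehicles, since the tables were made separately. BBC3 was at 1.59 with XY018 and 0.70 with GSK805 on the log2 scale, BCL2L11 at 0.52 and 0.80, BCL2L1 at -0.48 and -0.71, BID at -0.46 and -0.51 and TNFRSF10B at 0.24 and 0.40. These 5 genes had the same direction with both antagonists. The other 5 genes had opposite signs, with BAK1 at 0.14 and -0.63, BAX at 0.06 and -0.23, MCL1 at -0.24 and 0.27, BCL2 at -0.34 and 0.42 and PMAIP1 at -0.31 and 0.50. No library repeats either compound, so whether these differences exceed the spread between cultures was not tested.

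The vehicle libraries of MDA-MB468 themselves differed between both experiments. BAX was at 178.7 FPKM in the GSK805 table and 50.8 FPKM in the other, BID at 103.8 and 33.4, MCL1 at 133.4 and 63.9 and BAK1 at 18.3 and 30.5. BBC3, at 10.8 and 8.70 FPKM, PMAIP1, at 7.52 and 7.12, and BCL2, at 2.24 and 2.15, were closer. Differences of annotation, normalization and culture cannot be told apart here, and no level was compared across tables as a result. Within HCC70 the order with vehicle was MCL1, BAX, BID, BCL2L1, BCL2L11, BAK1, PMAIP1, TNFRSF10B, BBC3 and BCL2, from 73.7 to 0.10 FPKM. With vehicle in the XY018 experiment in MDA-MB468 it was MCL1, BAX, BCL2L1, BID, BAK1, TNFRSF10B, BCL2L11, BBC3, PMAIP1 and BCL2, from 63.9 to 2.15 FPKM.

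Around these 10 genes stand 49 further cell death genes in 7 lists, of which 44 to 46 could be compared. In HCC70 2 or 3 of 44 were higher and 0 to 2 lower in each comparison, beside 1.93% to 4.38% of all genes higher and 1.32% to 3.26% lower. In MDA-MB468 the number higher of 45 was 9 for 1.25 μM XY018, 12 for 2.5 μM and 11 for both compounds, beside 9.73%, 14.1% and 13.1% of all genes. In the same comparisons 0, 3 and 3 were lower, beside 8.38%, 14.5% and 12.2%. With ATV alone 0 of 44 passed in either direction, beside 1.37% higher and 0.803% lower. With GSK805 6 of 46 were higher beside 17.6% of all genes, and 7 lower beside 16.6%. The lists were written with earlier results of these samples known and are not independent evidence of a direction.

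Among relatives of the BH3-only genes, BMF, which encodes another BH3-only protein, was at 5.61 FPKM with vehicle in MDA-MB468, 13.6 and 14.7 FPKM with XY018 at 1.25 and 2.5 μM and 16.3 FPKM with both, the last a log2 ratio of 1.52 (1.39 to 1.68). HRK, a BH3-only gene of low level, was at 0.74 FPKM with vehicle and 1.46 to 1.76 FPKM in the 3 libraries with XY018, with log2 ratios from 0.89 to 1.15, and at 0.92 with GSK805. BNIP3, a mitochondrial BCL2 relative, was higher with both XY018 doses in HCC70, at 0.80 and 0.65, and lower with ATV, at -0.82, all on 10 to 32 estimated fragments and with intervals that cover 0, and it was lower with GSK805, at -0.73. Of the anti-apoptotic relatives, BCL2A1 was higher with XY018 in HCC70, at 0.62 and 1.32 on 10 to 26 fragments. It was also higher with GSK805, at 1.33 on 2 and 6 fragments. BCL2L10 was lower with ATV in HCC70, at -0.63, from the low levels of 1.48 against 2.34 FPKM.

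Among death receptors and ligands, TNF, the ligand of the TNF receptors, was at 3.0 FPKM with vehicle in MDA-MB468, 6.20 and 9.28 FPKM with XY018 at 1.25 and 2.5 μM and 15.6 FPKM with both, with log2 ratios of 1.02, 1.60 and 2.34. TNFRSF10C, a decoy receptor for TRAIL, was higher in the same 3 libraries, at 1.38, 1.80 and 1.42, from 23 estimated fragments with vehicle. TNFRSF25 was higher with XY018 at 2.5 μM and with both, at 0.64 and 0.66. TNFSF10, the gene of TRAIL itself, was lower in the same 2 comparisons, at 11.5 and 12.2 against 18.5 FPKM, and at 12.3 FPKM with XY018 at 1.25 μM it was just short of the threshold. It went the other way, without a call, in HCC70 with XY018, at 177.8, 174.2 and, with ATV added, 162.8 against 123.3 FPKM, and with GSK805, at 76.8 against 57.4 FPKM. In HCC70 another decoy receptor, TNFRSF10D, was at 2.16 FPKM with vehicle, 5.10 FPKM with ATV and 7.79 FPKM with both compounds, log2 ratios of 1.20 (0.83 to 1.64) and 1.80 (1.47 to 2.23), and FAS was lower with both, at -0.66. With GSK805 TNFRSF10A, the other TRAIL receptor with a death domain, was higher, at 0.79.

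Adaptors, caspases and the cytochrome c arm showed no call in HCC70. In MDA-MB468 the 1 call with XY018 was DIABLO, the gene of an antagonist of IAP proteins, at 0.60 with 2.5 μM. With GSK805 5 genes of these 2 lists were lower, the initiator caspase genes CASP8 and CASP10 at -1.09 and -1.11, CASP2 at -0.83, APAF1, which encodes the scaffold of the apoptosome, at -0.77, and CYCS, the gene of cytochrome c, at -0.73. CASP8 and CASP10 lay between -0.29 and 0.06 in the 3 MDA-MB468 comparisons with XY018. Of the IAP genes, whose products restrain caspases, BIRC2 was higher in all 3 MDA-MB468 comparisons with XY018, at 0.62, 0.62 and 0.66, and BIRC3 with both compounds, at 0.97. BIRC5, which encodes survivin, a protein with a part in mitosis, was lower with XY018 at 2.5 μM, with both and with GSK805, at -0.90, -0.64 and -0.65. XIAP and BIRC6 were higher with GSK805, at 0.70 and 0.77.

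Of the stress-response regulators, DDIT3, which encodes the stress-induced factor CHOP, was higher in 8 of 9 comparisons. It was at 17.5 FPKM with vehicle in MDA-MB468, 67.7 and 86.7 FPKM with XY018 at 1.25 and 2.5 μM, 18.5 with ATV and 103.8 FPKM with both. In HCC70 DDIT3 was at 8.38 FPKM with vehicle and 12.7 to 18.8 FPKM with treatment. With ATV in MDA-MB468 BBC3 was at 0.48 and DDIT3 at 0.08 (-0.15 to 0.31), while with ATV in HCC70 both were called higher, at 0.89 and 0.60. ATF3, a factor of the same stress response, was at 1.98, 2.60 and 3.02 in the 3 XY018 comparisons of MDA-MB468. TRIB3 was at 0.81, 0.87 and 0.83 there, and at 0.64 in HCC70 with both compounds. In the other comparisons, without a call, ATF3 was at 0.08 to 0.50 and TRIB3 at 0.23 to 0.45. ATF4, which acts upstream in this response and is controlled largely at translation, was not called, with log2 ratios from -0.25 to 0.30.

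CDKN1A, which encodes the CDK inhibitor p21, was higher with XY018 in MDA-MB468, at 1.04, 1.08 and 1.49, and was at -0.51 with GSK805. With ATV alone in MDA-MB468 it was at 0.22. In HCC70 it was not called, at -0.10 and 0.20 with XY018 at 1.25 and 2.5 μM, 0.30 with ATV and 0.28 with both. FOXO3, a forkhead factor known to activate BCL2L11, was called only with XY018 at 2.5 μM in MDA-MB468. There it was at 0.48 and 0.62 with XY018 at 1.25 and 2.5 μM, 0.18 with ATV, 0.52 with both and 0.10 with GSK805. BCL2L11 was at 0.56, 0.52, 0.18, 1.07 and 0.80 in the same order. In HCC70 FOXO3 was at 0.23 to 0.30, where BCL2L11 was at -0.16 to 0.19. A part of FOXO3 in the level of BCL2L11 was not tested. TP73 was lower in MDA-MB468 with XY018 at 2.5 μM and with both compounds, at -0.68 and -0.77.

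**Figure D5:**
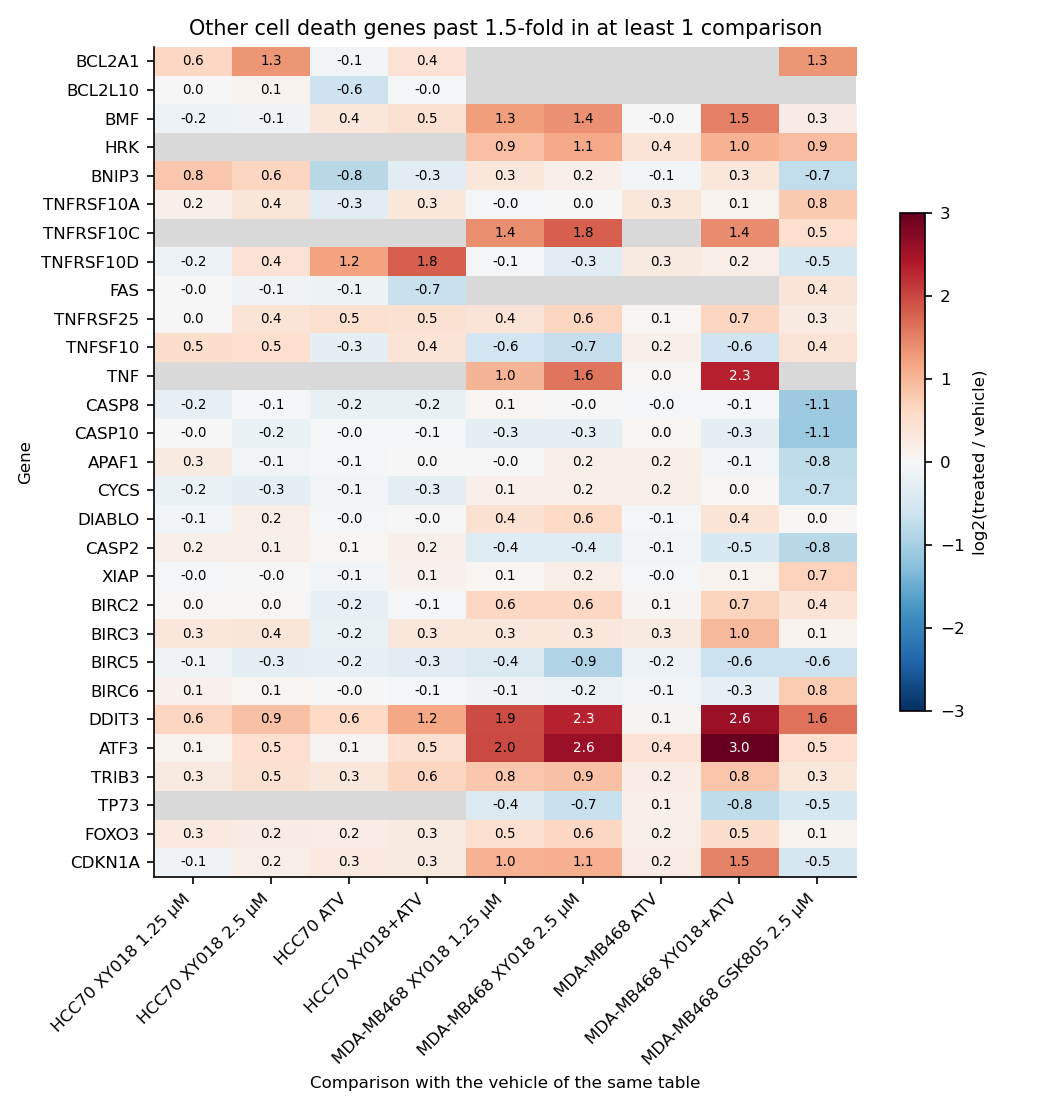
Log2 ratio to vehicle (colour and printed value) of the 29 further cell death genes (y) past 1.5-fold in at least one of 9 comparisons (x), with grey cells where a gene stayed under 1 FPKM in both libraries. DDIT3 is above 0 in every column and CASP8 and CASP10 are lowest with GSK805, at -1.09 and -1.11.

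The genes whose log2 ratios followed those of BBC3 most closely over the 9 comparisons, among 7576 genes at 5 FPKM or above in some library of each table, were FAM219A, H1FX and ADRM1, with Pearson's r of 0.984, 0.975 and 0.975. For BCL2L11 they were RPL12, PISD and BTG1, with r of 0.976, 0.976 and 0.968. These r are descriptions over 9 points that share 3 vehicle libraries, and the genes were found by a search over all 7576. Between BBC3 and BCL2L11 r was 0.767, and between BCL2L11 and BCL2L1 it was -0.918.

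On GRCh37, the build of the files, BBC3 lies at chr19:47724079-47736023 and BCL2L1 at chr20:30252255-30311792, both on the minus strand, and BCL2L11 lies at chr2:111876955-111926021 on the plus strand. Exons of 6 of the 10 genes overlap another gene, on the opposite strand in each case, namely ABALON over BCL2L1, ADAMTSL4 over MCL1, GGNBP1 over BAK1, MIR4435-2HG over BCL2L11, MIR3191 over BBC3 and RHOBTB2 over TNFRSF10B. MCL1 also overlaps ADAMTSL4-AS1 on its own strand, and BAK1 has 2 annotated pseudogene copies. Strand-specific counting is not given in the sources used here, so fragments of a gene and its antisense partner cannot be told apart. Gene-level values also do not separate isoforms, which matters for BCL2L1, MCL1 and BCL2L11, whose splice forms differ in function.

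Facts of the whole libraries bear on these values. The 6 epithelial markers EPCAM, KRT8, KRT18, KRT5, KRT17 and EGFR all reached 1 FPKM in each table. Their summed level was highest with vehicle in each table. It went down to 1014.6 against 1715.9 FPKM in HCC70, with both compounds. In MDA-MB468 it went down to 1825.6 against 2856.2 FPKM, with XY018 at 2.5 μM, and to 2020 against 2857 FPKM with GSK805. Of the receptors that define TNBC by their absence, PGR was listed at 0 or not listed and ESR1 was at 0.37 to 0.67 FPKM, except in the GSK805 table, where ESR1 was at 1.77 FPKM with vehicle and 5.67 FPKM with GSK805, and ERBB2 was at 25.3 to 57.7 FPKM. Of the 6 markers of other cell types, 3 reached 1 FPKM in HCC70, 3 in MDA-MB468 and 2 in the GSK805 table. COL1A2 and VWF were at 0.07 FPKM or less wherever listed and PTPRC, the leukocyte marker CD45, at 1.06 FPKM or less. COL1A1 was at 4.45 FPKM with vehicle in HCC70 and 4.96 FPKM with vehicle in the XY018 experiment in MDA-MB468. COL1A1 and CD68 were called higher in MDA-MB468 with XY018 at 1.25 and 2.5 μM, with both compounds and with GSK805. PTPRC was called higher with XY018 at 2.5 μM in MDA-MB468. No marker of this list was called in HCC70. In HCC70 CD68 was at 76.6 FPKM with vehicle and 98.8 FPKM with both compounds. Beside a vehicle sum of 10.2 FPKM in MDA-MB468, these markers summed to between 9.97 and 25.7 FPKM. The difference lay mainly in CD68, the gene of a lysosomal protein, at 4.42 FPKM with vehicle and 16.4 FPKM with XY018 at 2.5 μM. With ATV alone CD68 was at 3.83 FPKM. The markers of other cell types summed to 15.9 FPKM in the vehicle of the GSK805 pair and 29.6 FPKM with GSK805. The part of these markers in the result was not tested. The summed level of the MTRNR2L genes, nuclear copies of a mitochondrial RNA, was 8207 FPKM with vehicle, 9829 with ATV and 15337 to 19141 FPKM with XY018 in MDA-MB468, and its part was not tested either. In the GSK805 table mitochondrial and MTRNR2L genes took 51.5% of all FPKM with vehicle and 56.2% with GSK805.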

How the data were processed

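RNA-seq of 12 libraries of HCC70 and MDA-MB468 cells was used, with 1 library per condition, each grouped by its title. Per the study's methods and the submitters' processing notes, libraries were made with an Illumina Tru-Seq kit, reads were mapped to GRCh37 (hg19) with BWA and Bowtie, and genes were quantified with Cufflinks. Versions are not given in the sources used here. In 3 tables the authors deposited FPKM per gene, each table normalized on its own. No header names the unit, which was taken from the use of Cufflinks and from the range and sums of the values. Of names listed more than once, the entry with the highest summed FPKM was kept.

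Each treated library was set against its table's own vehicle as a log2 ratio with 0.1 FPKM added, which understates the change of low genes. Genes under 1 FPKM in both libraries were left out, and those past 1.5-fold were counted. To give a counting error, FPKM was multiplied by the length of the MANE Select transcript and the estimated depth, and such fragment numbers are approximate where a gene has several transcripts. The depth estimate, the calls past 1.5-fold and the counting intervals were checked on simulated data. The intervals were checked on simulated counts, so the conversion of FPKM to fragments was not covered.

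The 10 genes and the other lists were chosen with earlier results of these data known. Named are all 10 genes, every gene of the 7 cell death lists past 1.5-fold in a comparison, DDIT3, ATF4, TRIB3 and CDKN1A whatever their values, and the 3 genes most like each of the 2 genes with the widest range among those at 1 FPKM or above in every library. One further gene under this rule and one of the motifs searched are not reported here. The alternatives were pseudocounts of 1 and 0.01, no filter, a filter at 5 FPKM, rescaling each library to a median ratio of 1, a 2-fold threshold and, for GSK805, the vehicle of the other experiment. The restriction to symbols in all 3 tables was chosen after seeing the data. Scripts ran under Python 3.11.15 with pandas 2.3.3, scipy 1.17.1, numpy 2.4.6 and, for figures, matplotlib 3.10.9.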

Additional observations from a re-analysis of the deposited data

How the results depend on the processing

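No paired analysis was possible because each condition has 1 library, and for the same reason no library could be left out. Under pseudocounts of 1 and 0.01, no filter, a filter at 5 FPKM and rescaling, which shifted ratios by at most 0.02 on the log2 scale, no log2 ratio of the 10 genes changed direction where it had been called. Without a filter BCL2 entered in HCC70, so that 1 gene was higher with XY018 at 1.25 μM, 2 with ATV, and 1 lower with both compounds. Rescaling brought BBC3 past 1.5-fold with XY018 at 2.5 μM in HCC70, giving 1 higher gene. With a pseudocount of 1 BCL2L1 was no longer past 1.5-fold with both compounds in MDA-MB468, leaving 0 lower. At 2-fold the counts were 0 higher in HCC70 with ATV and with both, 0 lower in MDA-MB468 with both, and 0 higher and 0 lower with GSK805. Against the vehicle of the XY018 and ATV experiment, a separately normalized table, 6 genes were higher with GSK805. BAX was at 1.58, MCL1 at 1.33 and BID at 1.12 on the log2 scale, while BCL2L1 at -1.16 and BAK1 at -1.37 were lower. BAX and BID had been at -0.23 and -0.51 against their own vehicle. The log2 ratio of the GSK805 vehicle to this other vehicle enters each of these values. It was 1.81 for BAX, 1.06 for MCL1, 1.63 for BID, -0.45 for BCL2L1 and -0.74 for BAK1. What made the vehicles differ was not tested.

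Depth limits BBC3 in HCC70, BCL2, BCL2A1, BNIP3 and TNFRSF10C most, and the counting intervals leave out the variation between cultures and library preparations, which single libraries do not show.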
